A study of Mus musculus with 10 samples.

Results

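The genes described here are 10 members of the canonical Wnt pathway, of 31053 genes listed in the files: the ligand Wnt7b, the receptor Lgr4, the transcription factors Lef1 and Tcf7, the feedback targets Axin2, Notum, Nkd1, Rnf43 and Znrf3, and the secreted inhibitor Wif1. They were matched by symbol, and each symbol matched 1 gene. Their counts were followed across 10 single-cell RNA libraries of lineage-labelled alveolar type 2 (AT2) cells, the surfactant-producing progenitors of the mouse lung alveolus. Every mouse carried Sftpc-CreERT2, a Cre recombinase that acts in cells using the surfactant gene Sftpc, and was given 3 doses of tamoxifen at 0.2 mg per g body weight. The study's methods describe 8-week-old mice of both sexes, pool at least 2 lungs into each library, and state that tamoxifen was not yet fully cleared at the 4-day point. In Sftpc-CreERT2; R26R-Confetti mice, RFP+ and YFP+ cells are both wildtype (1 library each, with no time point in the labels and 2 weeks in the methods). The methods count 1 Confetti sample, so these 2 libraries may be colours of 1 pool and not separate replicates. In mice with Sftpc-CreERT2; Red2Kras, the RFP label marks mutant cells and the YFP label their wildtype neighbours of the same lungs, with 2 libraries per colour at 4 days and 2 libraries per colour at 2 weeks. The question for these genes is how the pathway's ligands and readouts differ in mutant cells, and in the wildtype cells that lie beside them.

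In the canonical Wnt pathway a secreted Wnt protein binds Frizzled and LRP receptors, beta-catenin is spared from degradation, and beta-catenin then acts with TCF and LEF proteins to switch on target genes. Several targets damp the pathway in turn: Axin2 scaffolds the complex that degrades beta-catenin, Nkd1 binds Dishevelled, Rnf43 and Znrf3 are ubiquitin ligases that remove Frizzled from the cell surface, and Notum is a secreted enzyme that removes the lipid Wnt needs. R-spondins, bound by Lgr4, hold Rnf43 and Znrf3 back. In the lung, Axin2 expression marks AT2 cells that receive a Wnt signal, and Wnt7b is made by epithelium.

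After filters 29573 alveolar cells remained, with 7336824 to 71490396 UMIs (unique molecular identifiers, each standing for 1 captured RNA molecule) per library. The share of filtered cells discarded as other cell types was uneven. It was 42.3% in 2-week YFP replicate 2, 21.4% in 2-week RFP replicate 2 and 17.6% in 4-day RFP replicate 2. Elsewhere it was 3.18% to 11.7%. The median was 3251 to 6707.5 UMIs per cell in 8 libraries and 15810 and 13381.5 in the 2-week RFP libraries. The 8 AT2 markers were detected in every library. Their summed level was 96921 CPM (a gene's UMIs relative to all UMIs of the library) in 4-day RFP replicate 2, 109348 and 92797 CPM in the 2-week RFP libraries and 155760 to 206696 CPM in the other 7. The first 3 are also the libraries with the lowest Nkd1 and Notum and the highest Wnt7b levels. Cell states were named from marker genes. AT2-like cells made up 96.3% and 96.9% of the Confetti libraries. At 4 days the libraries labelled replicate 1 held 89.7% (RFP) and 95.1% (YFP) AT2-like cells, whereas those labelled replicate 2 held 2.93% and 1.40%. Cells named DATP-like, for damage-associated transient progenitors, made up 36.1% of 4-day RFP replicate 2 and 21.3% and 38.1% of the 2-week RFP libraries, and at most 2.78% of every other library. Unnamed clusters 9 and 10 held 25.6% and 55.9% of the 2-week RFP libraries. Markers of other cell types in the alveolar sums moved in part with the groups. The airway secretory markers summed to 2036 and 2136 CPM in Confetti. In Red2Kras they summed to 84.1 to 370 CPM in RFP and 303 to 822 CPM in YFP, lower in RFP in all 4 same-numbered pairs. The 6 macrophage markers summed to 10.7 CPM in 4-day RFP replicate 2, to 5.99 and 14.3 CPM in the 2-week RFP libraries and to at most 4.55 CPM elsewhere. The 5 ciliated markers summed to 96.9 and 105 CPM in Confetti, 61.7 and 23.3 CPM in RFP and 82.1 and 48.5 CPM in YFP at 4 days, and 29.4 and 16.5 CPM in RFP and 72.3 and 70.5 CPM in YFP at 2 weeks, lower in RFP in all 4 same-numbered pairs as the feedback targets were. The 5 endothelial markers were also lower in RFP in all 4 pairs, at 15.9 to 22.3 CPM in RFP, 20.8 to 38.4 CPM in YFP and 22.3 and 19.3 CPM in Confetti. The part of these markers in the results was not tested. At most 11 alveolar cell barcodes were shared by any pair of libraries.

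All 5 feedback targets of the pathway had their lowest group mean in 2-week mutant cells, while the ligand Wnt7b had its 2 highest group means in mutant cells. The share of all genes with such group means was not counted. By share of cells with a UMI, with all UMIs kept, none of the 5 targets was lowest in 2-week RFP. Rnf43 was found in 11.8% of 2-week RFP cells (mean of 2 libraries), against 6.34% and 5.601% in Confetti RFP and YFP. Znrf3 was found in 6.54%, against 5.74% and 5.02%. Axin2 (4.55%, against 5.10% and 5.35%), Nkd1 and Notum were lower than in Confetti. After every cell was thinned to 2000 UMIs, all 5 had their lowest mean share in 2-week RFP. Levels below are UMIs summed over a library's alveolar cells and given as CPM after TMM scaling, tests are edgeR's quasi-likelihood test on those sums, and p-values were adjusted over all genes tested. The tests compare levels between libraries and not between genes. Of the 10 genes, 8 passed the filter on low counts, in both fits, and Lef1 and Wif1 did not. In 2-week RFP against Confetti, 6 of these 8 genes (Lgr4, Axin2, Notum, Nkd1, Rnf43 and Znrf3) had both mutant libraries below both Confetti libraries, and Wnt7b had both above. Among all 13776 genes tested, 36.3% had both mutant libraries below and 37.4% had both above. The median log2 difference of the 8 genes was -1.57, against 0.03 over all genes tested. In this comparison 1 of the 8 (Notum) passed an adjusted p of 0.05, beside 5.58% of all genes in either direction and 2.03% downward. At an unadjusted p under 0.05 the count was 6 of 8, beside 31.1% of all genes.

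**Figure D1:**
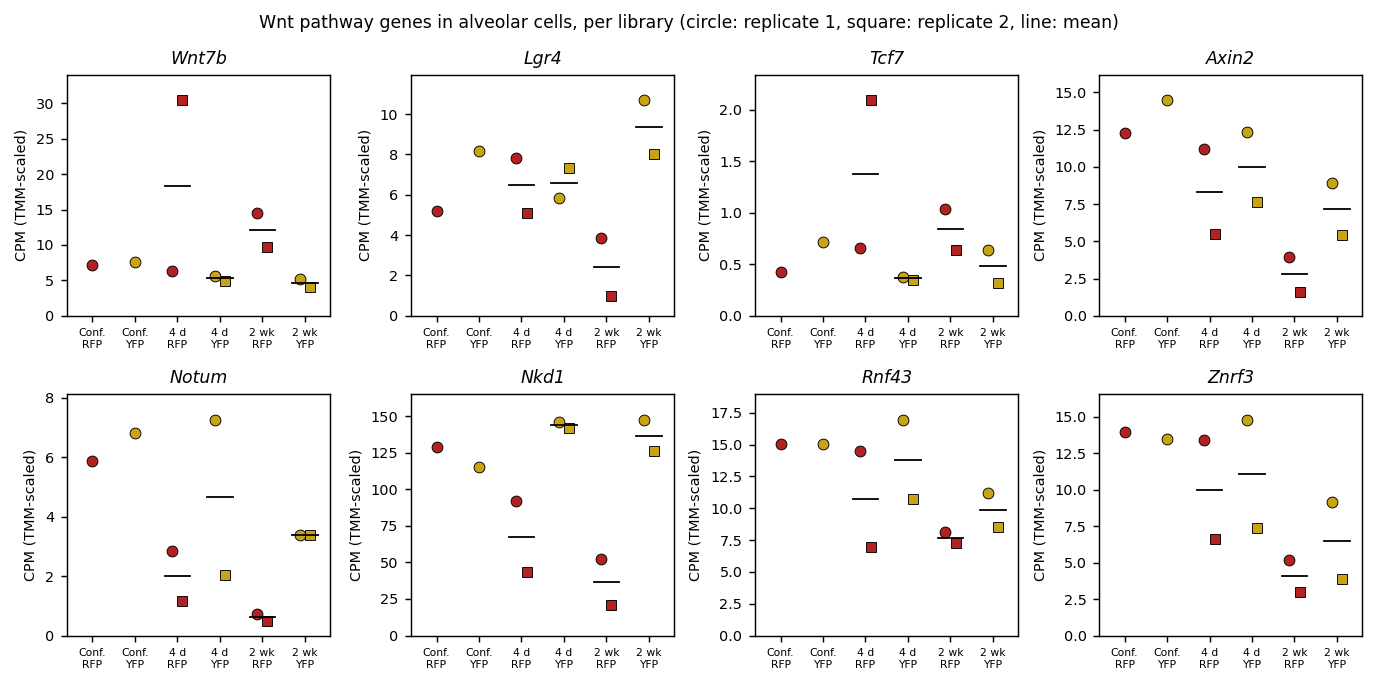
Level of each tested gene (y axis, TMM-scaled CPM, from 0) in the 10 libraries, by group on the x axis (Confetti RFP and YFP, then Red2Kras RFP and YFP at 4 days and 2 weeks). Circles are replicate 1, squares are replicate 2 and lines are means. Nkd1 lies lower in all 4 Red2Kras RFP libraries than in all 4 YFP libraries, and Wnt7b lies highest in 4-day RFP replicate 2.

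Comparing mutant RFP+ with wildtype YFP+ cells of Red2Kras lungs over both time points (4 libraries against 4), the same direction held in all 4 same-numbered pairs for 7 of the 8 tested genes. Axin2, Notum, Nkd1, Rnf43 and Znrf3 were lower in RFP in all 4 pairs, as were 20.3% of the 12840 genes tested. Wnt7b and Tcf7 were higher in all 4 pairs, as were 19.2% of all genes. The ranges did not overlap for Nkd1, with all 4 RFP libraries below all 4 YFP libraries (4.86% of all genes), nor for Wnt7b, with all 4 above (4.31% of all genes). Without pairing, edgeR called 0 of the 8 genes, as it called 0.0% of all genes, with 3 of the 8 at an unadjusted p under 0.05, beside 21.5% of all genes. DESeq2 called 3 of the 8, beside 9.84% of all genes. Same-numbered RFP and YFP libraries deviated together, and with the replicate number as a block 3 of the 8 were called (Nkd1, Notum and Wnt7b), beside 16.9% of all genes. The 3 that DESeq2 called were these same 3. A block on the number across both time points called 2 (Nkd1 and Notum), beside 7.0% of all genes.

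At 2 weeks alone edgeR called 0 of the 8 between RFP and YFP, beside 0.00726% of all genes (1 gene), with 4 of the 8 at an unadjusted p under 0.05, beside 16.4% of all genes. DESeq2 called 3 (Lgr4, Nkd1 and Notum), beside 3.4% of all genes. With the replicate block 4 of the 8 were called, all lower in RFP (Axin2, Lgr4, Nkd1 and Notum), beside 16.2% of all genes. With the block on the number across both time points 0 of the 8 were called at 2 weeks, beside 0.0% of all genes. At 4 days edgeR called 0 of the 8, as it called 0.0% of all genes, with 1 (Wnt7b) at an unadjusted p under 0.05, beside 5.76% of all genes, and 0 called by DESeq2, beside 0.813%. Without the library labelled 4-day RFP replicate 1, Wnt7b passed there (log2 fold change 2.53, adjusted p = 0.0264), beside 1.46% of all genes. That leaves 1 mutant library at 4 days, which is assumed to vary as the other groups do.

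**Figure D2:**
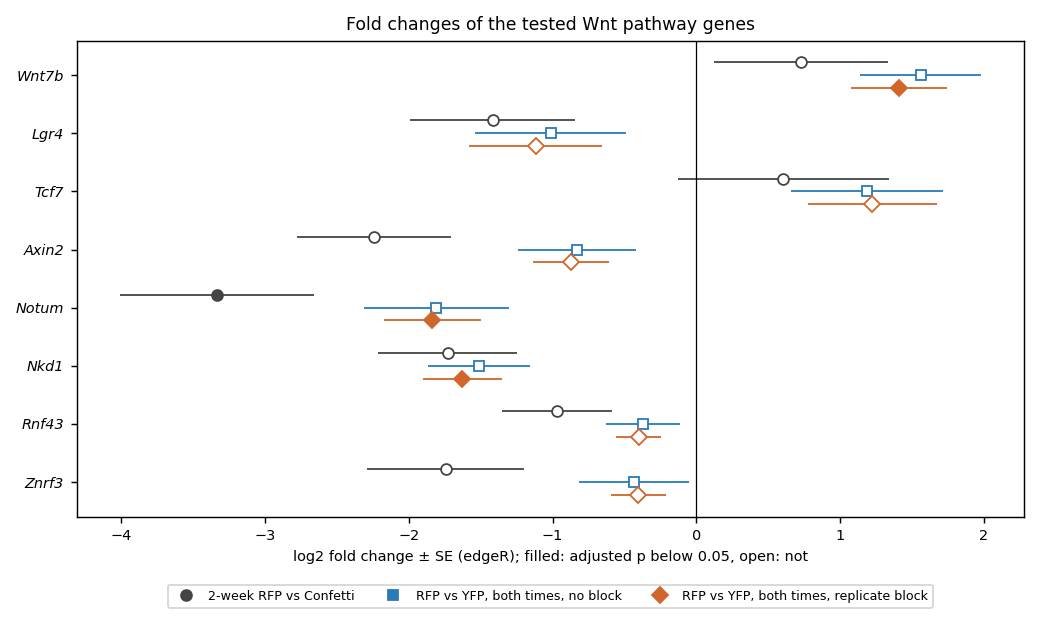
Log2 fold change with its SE (x axis, from edgeR) for the 8 tested genes (y axis) in 2-week RFP against Confetti (circles), in RFP against YFP over both time points without the replicate block (squares) and with it (diamonds). Filled symbols passed an adjusted p of 0.05: Notum in the first, none in the second, and Wnt7b, Notum and Nkd1 in the third.

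Wnt7b (chromosome 15, 85535437 to 85582473 of GRCm38, minus strand, protein coding) encodes a Wnt ligand that signals over short distances. Its level was 7.12 CPM in Confetti RFP and 7.53 CPM in Confetti YFP. At 4 days it was 6.37 and 30.4 CPM in the RFP and 5.64 and 4.92 CPM in the YFP libraries, and at 2 weeks 14.5 and 9.70 CPM in the RFP and 5.13 and 4.01 CPM in the YFP libraries. Each of the 3 RFP libraries rich in DATP-like cells stood above both Confetti libraries, whereas 4-day RFP replicate 1 stood below them. RFP against YFP over both time points gave a log2 fold change of 1.56 ± 0.42 (SE, n = 4 libraries per colour; edgeR adjusted p = 0.0989), and 1.41 ± 0.33 with the replicate block (edgeR adjusted p = 0.0240). Without 4-day RFP replicate 1 the unpaired fit gave 1.86 (adjusted p = 0.0122). Without 4-day RFP replicate 2 it gave 0.94 (adjusted p = 0.194), and over all alternatives the adjusted p ran from 1.59e-07 to 0.330. Against Confetti the difference was 0.73 ± 0.61 at 2 weeks (edgeR adjusted p = 0.433). At 4 days it was 1.31 ± 0.62 (edgeR adjusted p = 0.584). The 4-day value rested on single mutant libraries, at 2.06 (adjusted p = 0.0297) without replicate 1 and -0.20 (adjusted p = 0.99993) without replicate 2.

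By cell, a Wnt7b UMI was found in 12.2% of cells of 4-day RFP replicate 2 and in 15.8% and 11.003% of the 2-week RFP libraries. The other 7 libraries held 2.08% to 3.37% of such cells. After every cell was thinned to 2000 UMIs, the first 3 libraries held 5.67%, 2.64% and 1.55%, and the others 0.595% to 1.52%, so that 2-week RFP replicate 2 lay next to the Confetti values. Macrophage-like cells, here all immune cells without a lymphocyte marker UMI, are given for comparison. A Wnt7b UMI was found in 0.180% of 2224 such cells at a median of 7173 UMIs. After thinning it was found in 0 of 2223 cells, which allows a share of up to 0.135%.

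Split by cell state, Wnt7b was at 77.2, 49.2 and 21.1 CPM in the DATP-like cells of 4-day RFP replicate 2, 2-week RFP replicate 1 and 2-week RFP replicate 2, the 3 libraries with at least 50 such cells. In AT2-like cells it ranged from 5.11 to 8.29 CPM over 7 libraries, and in primed AT2-like cells from 2.08 to 12.0 CPM over 8. In unnamed clusters 9 and 10 of the 2-week RFP libraries it was at 3.50 to 5.35 CPM. Cycling-like cells held 1.08 to 5.89 CPM in the RFP, 2.81 and 8.28 CPM in the YFP and 10.4 and 9.92 CPM in Confetti. Primed AT2-like cells of the Red2Kras RFP libraries held 2.47 to 4.27 CPM and those of the YFP libraries 2.08 to 4.30 CPM, so the colours overlapped within that state. The clusters were formed with the expression of all variable genes, so these values describe the states and do not test them. A library sum does not tell a larger share of DATP-like cells from more Wnt7b RNA in each cell.

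**Figure D3:**
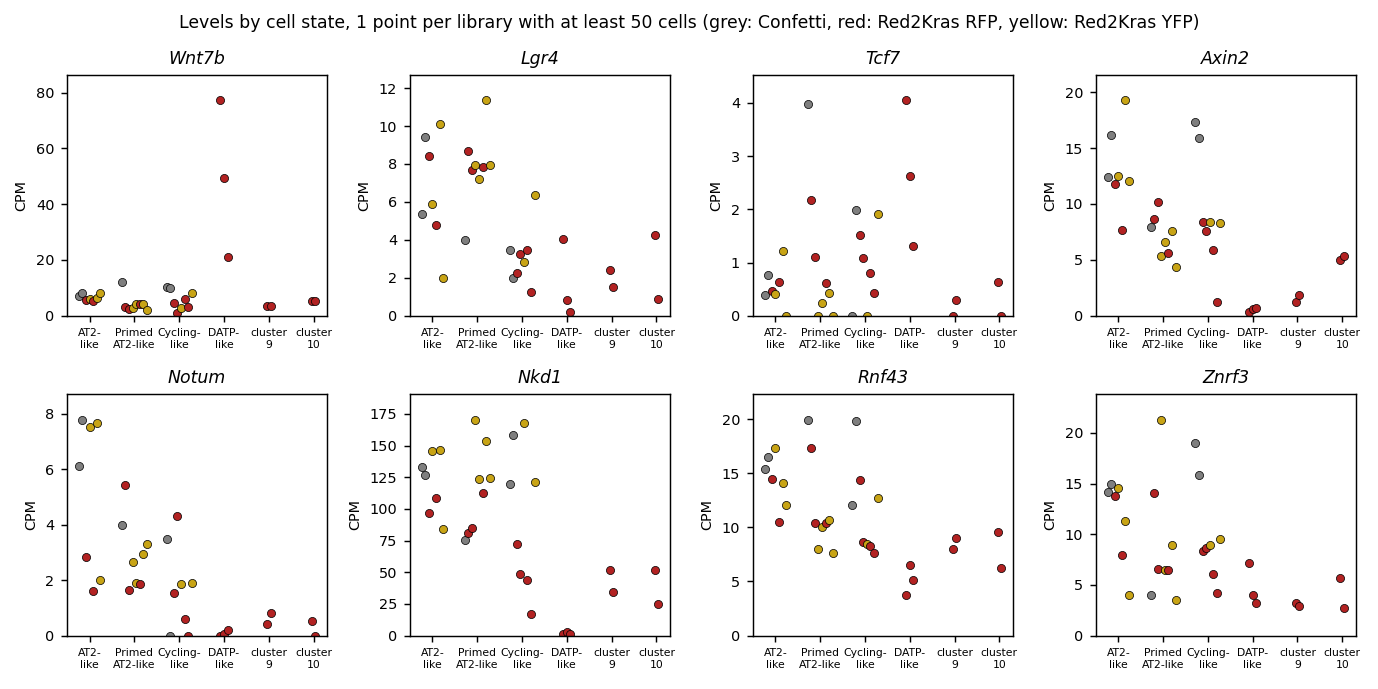
Level of each tested gene (y axis, CPM of the cells of 1 state in 1 library, from 0) by cell state (x axis), with 1 point per library that holds at least 50 cells of that state. Grey points are Confetti, red points Red2Kras RFP and yellow points Red2Kras YFP libraries. Wnt7b is at 21.1 to 77.2 CPM and Nkd1 at 0.826 to 2.98 CPM in the DATP-like cells of 3 RFP libraries.

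Lgr4 (chromosome 2, 109917647 to 110014257, plus strand) encodes the R-spondin receptor. Its level was 5.19 and 8.18 CPM in Confetti RFP and YFP. At 4 days it was 7.84 and 5.11 CPM in RFP and 5.83 and 7.32 CPM in YFP, and at 2 weeks 3.84 and 0.979 CPM in RFP and 10.7 and 8.02 CPM in YFP. The colours overlapped at 4 days and did not at 2 weeks. The 2-week difference between RFP and YFP was -1.95 ± 0.58 on the log2 scale (edgeR adjusted p = 0.212), and -2.14 ± 0.40 with the block (edgeR adjusted p = 0.0154). The change of this difference from 4 days to 2 weeks was -1.93 ± 0.81 (edgeR unadjusted p = 0.0428, adjusted p = 0.99987), and 0 of the 8 genes passed for that change with or without the block, beside 0.0% of all genes. Against Confetti, 2-week RFP differed by -1.42 ± 0.57 (edgeR adjusted p = 0.139). That value passed without a filter on low counts (adjusted p = 0.0117) and without 2-week RFP replicate 1 (-2.75, adjusted p = 0.049994), where a single mutant library is left. Its adjusted p reached 0.414 over the other alternatives. Lgr4 was at 0.206 to 4.05 CPM in DATP-like cells and at 3.98 to 11.4 CPM in primed AT2-like cells.

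Of the TCF and LEF factors among the 10 genes, Lef1 (chromosome 3, 131110471 to 131224356, plus strand) was near absent. In the alveolar cells of all 10 libraries together 8 UMIs were counted, at most 3 in any one, and 0 in both Confetti libraries. No fold is given, since every library lay at or under 3 UMIs. Tcf7 (chromosome 11, 52252371 to 52283014, minus strand) had 184 UMIs in all. Its level was 0.423 and 0.720 CPM in Confetti, 0.657 and 2.09 CPM in RFP and 0.376 and 0.351 CPM in YFP at 4 days, and 1.04 and 0.637 CPM in RFP and 0.641 and 0.321 CPM in YFP at 2 weeks. The 4-day RFP replicate 2 library stood apart at the top, and the others overlapped. RFP against YFP gave 1.19 ± 0.53 over both time points (edgeR adjusted p = 0.236), and 1.22 ± 0.45 with the block (edgeR adjusted p = 0.0895). In DATP-like cells Tcf7 reached 1.31 to 4.05 CPM, and in AT2-like cells 0 to 1.22 CPM. A Tcf7 UMI was seen in 0.184% to 1.90% of alveolar cells, and in 0.135% of macrophage-like cells, so the lowest alveolar share lay close to that of macrophage-like cells.

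Axin2 (chromosome 11, 108920349 to 108950783, plus strand) is the most widely used readout of canonical Wnt signalling. Its level was 12.3 and 14.5 CPM in Confetti. It was 11.2 and 5.46 CPM in RFP and 12.3 and 7.67 CPM in YFP at 4 days, and 3.96 and 1.62 CPM in RFP and 8.94 and 5.45 CPM in YFP at 2 weeks. Both 2-week RFP libraries lay below every other library. The 2-week RFP level differed from Confetti by -2.24 ± 0.54 on the log2 scale, a 4.73-fold lower level that missed the threshold (edgeR adjusted p = 0.0502). With DESeq2 the adjusted p was 0.00130, and over all alternatives it ran from 1.04e-06 to 0.238. The wildtype neighbours at 2 weeks differed from Confetti by -0.86 ± 0.52 (edgeR adjusted p = 0.765). RFP against YFP at 2 weeks was -1.38 ± 0.53 (edgeR adjusted p = 0.270), and -1.44 ± 0.27 with the block (edgeR adjusted p = 0.0149). Axin2 was at 0.311 to 0.688 CPM in DATP-like cells, 4.32 to 10.2 CPM in primed AT2-like cells and 7.67 to 19.3 CPM in AT2-like cells. Within AT2-like cells the RFP libraries held 11.8 CPM at 4 days and 7.67 CPM at 2 weeks and the YFP libraries 12.0 to 19.3 CPM, with 12.4 and 16.1 CPM in Confetti. Within primed AT2-like cells the order was reversed at 4 days, with 8.67 and 10.2 CPM in RFP and 5.32 and 6.60 CPM in YFP. At 2 weeks the colours overlapped there, at 5.62 CPM in RFP and 7.57 and 4.32 CPM in YFP. They also overlapped in cycling-like cells, at 1.27 to 8.35 CPM in RFP and 8.43 and 8.28 CPM in YFP.

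Notum (chromosome 11, 120653788 to 120661175, minus strand) was the gene of this set that passed the test without pairing. It stood at 5.86 and 6.81 CPM in Confetti. It was 2.83 and 1.16 CPM in RFP and 7.24 and 2.05 CPM in YFP at 4 days, and 0.740 and 0.490 CPM in RFP and 3.40 and 3.37 CPM in YFP at 2 weeks. The 2-week RFP libraries were the lowest of all 10. Notum fell 10.1-fold in 2-week RFP cells against Confetti (log2 fold change -3.33 ± 0.67, n = 2 mutant libraries against 1 Confetti library of each colour, edgeR adjusted p = 0.0438). Both Confetti libraries may come from 1 pool, and the spread between them does not enter this p-value. The call was lost with 8 of the 10 libraries left out in turn, with adjusted p up to 0.216. Without 4-day RFP replicate 1 or 2 the adjusted p was 0.0221 and 0.0219. Those 8 are both Confetti libraries, all 4 at 2 weeks and both 4-day YFP libraries. The call was also lost with all filtered cells summed (adjusted p = 0.153), with a marker gate in place of clustering (0.0739) and with cells thinned to 2000 UMIs (0.0669), at log2 fold changes of -3.32, -3.34 and -2.94. RFP against YFP over both time points gave -1.81 ± 0.51 (edgeR adjusted p = 0.103), and -1.83 ± 0.34 with the block (edgeR adjusted p = 0.0114). Notum UMIs were few, 57 and 20 in the 2-week RFP libraries and 97 and 104 in Confetti. In DATP-like cells the level was 0 to 0.206 CPM.

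Nkd1 (chromosome 8, 88521354 to 88594884, plus strand) had by far the most UMIs of the 10 genes, 19642 in all, and so the least counting error. Its level was 129 and 115 CPM in Confetti. In RFP it was 92.0 and 43.4 CPM at 4 days and 52.3 and 21.1 CPM at 2 weeks, and in YFP it was 146 and 142 CPM at 4 days and 147 and 126 CPM at 2 weeks. The 4 RFP libraries (52.2 ± 29.6 CPM, SD) all lay below Confetti, and the 4 YFP libraries (140 ± 9.84 CPM, SD) overlapped it. RFP against YFP gave -1.51 ± 0.36 on the log2 scale (edgeR adjusted p = 0.0863), and -1.63 ± 0.27 with the block, 3.09-fold lower (edgeR adjusted p = 0.00880). Against Confetti, 2-week RFP differed by -1.73 ± 0.49 (edgeR adjusted p = 0.0656) and 2-week YFP by 0.17 ± 0.47 (edgeR adjusted p = 0.931). The first value passed without either 4-day RFP library (adjusted p = 0.0398 and 0.0399), and over all alternatives its adjusted p ran from 7.88e-05 to 0.294.

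An Nkd1 UMI was present in 33.9% to 54.9% of cells in the Confetti and YFP libraries, and in 35.7% and 19.4% of cells of 4-day RFP and 45.2% and 16.4% of cells of 2-week RFP. After thinning to 2000 UMIs the Confetti and YFP libraries held 19.9% to 25.4%, and the RFP libraries 17.8%, 8.47%, 11.4% and 4.37%, with no overlap. Macrophage-like cells held 1.53% before and 0.405% after thinning. By state, Nkd1 was at 1.25 CPM (4-day RFP replicate 2) and 2.98 and 0.826 CPM (2-week RFP) in DATP-like cells and at 84.3 to 146 CPM in AT2-like cells. The clusters that took no name, 9 (led by Meg3, Kng2 and Dlk1, with Cd177 and Cd38) and 10 (led by Dlk1, Phgr1 and Pglyrp1), held 25.0 to 52.0 CPM. Colour also separated the libraries inside 2 states: in primed AT2-like cells the 3 RFP libraries held 81.3, 85.0 and 113 CPM and the 4 YFP libraries 124 to 170 CPM, and in cycling-like cells the 4 RFP libraries held 17.0 to 72.1 CPM and the 2 YFP libraries 121 and 168 CPM. The wildtype Confetti RFP library held 75.7 CPM in its 50 primed AT2-like cells, below the mutant libraries, and the Confetti libraries 119 and 159 CPM in cycling-like cells. In AT2-like cells the colours overlapped, at 96.8 and 108 CPM in RFP and 84.3 to 146 CPM in YFP.

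The ubiquitin ligases Rnf43 (chromosome 11, 87662722 to 87735539, plus strand) and Znrf3 (chromosome 11, 5276324 to 5444847, minus strand) did not pass edgeR's test in any comparison with the filter on low counts. Rnf43 stood at 15.1 and 15.1 CPM in Confetti, 14.5 and 6.96 CPM in RFP and 16.9 and 10.7 CPM in YFP at 4 days, and 8.14 and 7.25 CPM in RFP and 11.2 and 8.50 CPM in YFP at 2 weeks. The colours overlapped at 4 days, where the gap between replicates was wider than that between colours, and did not overlap at 2 weeks. RFP against YFP was -0.37 ± 0.26 (edgeR adjusted p = 0.445), and 2-week RFP against Confetti was -0.97 ± 0.38 (edgeR adjusted p = 0.133). Znrf3 stood at 13.9 and 13.5 CPM in Confetti, 13.4 and 6.62 CPM in RFP and 14.8 and 7.38 CPM in YFP at 4 days, and 5.17 and 2.99 CPM in RFP and 9.13 and 3.85 CPM in YFP at 2 weeks. In both colours replicate 2 was the lower at each time point. RFP against YFP gave -0.43 ± 0.38 over both time points (edgeR adjusted p = 0.550), and -0.71 ± 0.54 at 2 weeks (edgeR adjusted p = 0.525), which turned to 0.068 without 2-week YFP replicate 1. The 2-week RFP level of Znrf3 differed from Confetti by -1.74 ± 0.55 (edgeR adjusted p = 0.0825). It passed with DESeq2 (adjusted p = 0.0189), and over all alternatives the adjusted p ran from 0.000173 to 0.356. In DATP-like cells Rnf43 was at 3.74 to 6.48 CPM and Znrf3 at 3.17 to 7.16 CPM.

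Wif1 (chromosome 10, 121033960 to 121100650, plus strand), a secreted protein that binds Wnt, had 17 UMIs over the alveolar cells of all libraries and at most 3 in each. No library lay above 3 UMIs, so differences were not detectable at this depth.

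The cells named DATP-like changed with how finely the cells were split. When the alveolar cells were clustered at the finer resolution of 1.5, the DATP-like cells formed clusters 15, 16 and 17, of which 15 took the name of another state list there. Nkd1 was at 1.20 to 3.12 CPM and Axin2 at 0.136 to 1.46 CPM there in each library with at least 50 cells. Wnt7b was at 78.4 CPM (4-day RFP replicate 2) and 79.0 CPM (2-week RFP replicate 1) in cluster 17, led by Ndrg1 and Hmga2. It was at 19.5 and 30.2 CPM in cluster 16, led by Procr and F3, and at 23.4 CPM in cluster 15, led by Gzme and Spp1. A further cluster, 3, led by Fosb and Atf3 and made of cells that were AT2-like at the coarser resolution, also took the DATP name there and held 81.2 to 170 CPM of Nkd1. The median over libraries of all cells named DATP-like there was 66.6 CPM for Nkd1, 14.9 CPM for Axin2 and 18.1 CPM for Wnt7b, with an AT2-like median of 10.995 CPM for Axin2. Primed AT2-like cells were made of 4 clusters, and among the leading genes of these were replication genes (Mcm5, Hells), interferon-induced genes (Isg15, Iigp1) and heat-shock genes (Hspa1a, Hspa1b).

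The remaining comparisons gave no call among the 8 tested genes. In 4-day RFP against Confetti edgeR called 0, as it called 0.0% of all genes, with 1 (Notum) at an unadjusted p under 0.05, beside 8.86% of all genes, and their log2 differences ran from -1.61 to 1.31. For mutant cells over time, 2-week RFP against 4-day RFP, all 8 were lower at 2 weeks, by 0.50 (Rnf43) to 1.72 (Notum) on the log2 scale as sizes of the decrease. The direction rested on single libraries for 3 of them: without 4-day RFP replicate 2 the difference was 0.93 for Wnt7b and 0.36 for Tcf7, and without 4-day RFP replicate 1 it was 0.14 for Rnf43. None of these passed, beside 0.0% of all genes (edgeR lowest adjusted p among the 8 = 0.416, 4 at an unadjusted p under 0.05, beside 11.1% of all genes, and 0 by DESeq2, beside 0.951%). Wildtype YFP+ cells gave 0 calls among the 8 against Confetti at 4 days (0.029% of all genes called) and at 2 weeks (0.0218%), and 0 between the time points (0.0%), with 0 of the 8 at an unadjusted p under 0.05 in each (1.81%, 5.63% and 1.66% of all genes) and 0 called by DESeq2 (0.0871%, 0.74% and 0.138%). Their log2 differences from Confetti ran from -0.60 to 0.24 at 4 days and from -1.03 to 0.53 at 2 weeks. The Confetti comparisons share the same 2 control libraries, so they are not independent of one another. By the study's methods the libraries were made on more than 1 day, and neither the labels nor the methods tie a library to a day. Day and group therefore cannot be told apart in the comparisons with Confetti, and a day that follows the replicate number was taken up only by the block.

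Beyond these 10 genes, 96 of 99 other listed Wnt pathway genes were in the files and 59 of them were tested. In 2-week RFP against Confetti 5 rose and 1 fell, beside 3.56% of all genes upward and 2.03% downward. Of the ligands and the secretion machinery, 20 were listed, 9 passed the low-count filter and 4 of these rose. For Wnt7a and Wnt10a passing that filter depended in part on the rise itself. This count and the 5 above therefore describe the genes and do not test the lists. Wnt7a was at 9.50 and 16.6 CPM in 2-week RFP and at 0 and 0.327 CPM (0 and 5 UMIs) in Confetti (edgeR adjusted p = 0.0497), and at 26.9 CPM in 4-day RFP replicate 2. With so few UMIs in Confetti it entered the test through other libraries, so its call is no separate support for a rise. Wnt10a was at 4.47 and 3.11 CPM in 2-week RFP, against 1 UMI in both Confetti libraries together (edgeR adjusted p = 0.0452). It had 0 UMIs in each 4-day YFP library and 4 in each 2-week YFP library, so it entered the test mainly through RFP libraries. Its call is likewise no separate support for a rise. Wnt4 rose by 1.78 ± 0.36 on the log2 scale, from 1.57 and 1.90 CPM to 5.91 and 5.97 CPM (edgeR adjusted p = 0.0438). Porcn, the acyltransferase that Wnt proteins need before secretion, rose by 2.48 ± 0.57 (edgeR adjusted p = 0.0473), with 7.78 and 27.9 CPM in the 2-week RFP libraries, which differ widely.

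Of the receptors, Fzd4 rose by 4.18 ± 0.65 on the log2 scale (0.604 and 0.851 CPM in Confetti, 7.98 and 18.2 CPM in 2-week RFP; edgeR adjusted p = 0.0352). Fzd7 had 35.4 and 40.6 CPM in Confetti and 14.0 and 12.3 CPM in 2-week RFP, a log2 fold change of -1.53 ± 0.32 (edgeR adjusted p = 0.0441). The other 10 tested receptors, the 13 tested genes of the intracellular core and the 10 tested nuclear factors and cofactors gave no call. Nor did the 3 tested inhibitors and the 12 other targets. Beta-catenin itself (Ctnnb1) was at 330 to 471 CPM in all 10 libraries, and Wls, which carries Wnt proteins to the cell surface, at 86.6 to 189 CPM. None of the 4 R-spondin genes was tested, and Rspo1, the highest of them, reached 0.131 CPM. All 6 calls were close to the threshold, and each was lost in 7 to 11 of 19 other settings, with adjusted p up to 0.604 for Wnt4 and up to 0.25 for the others.

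**Figure D4:**
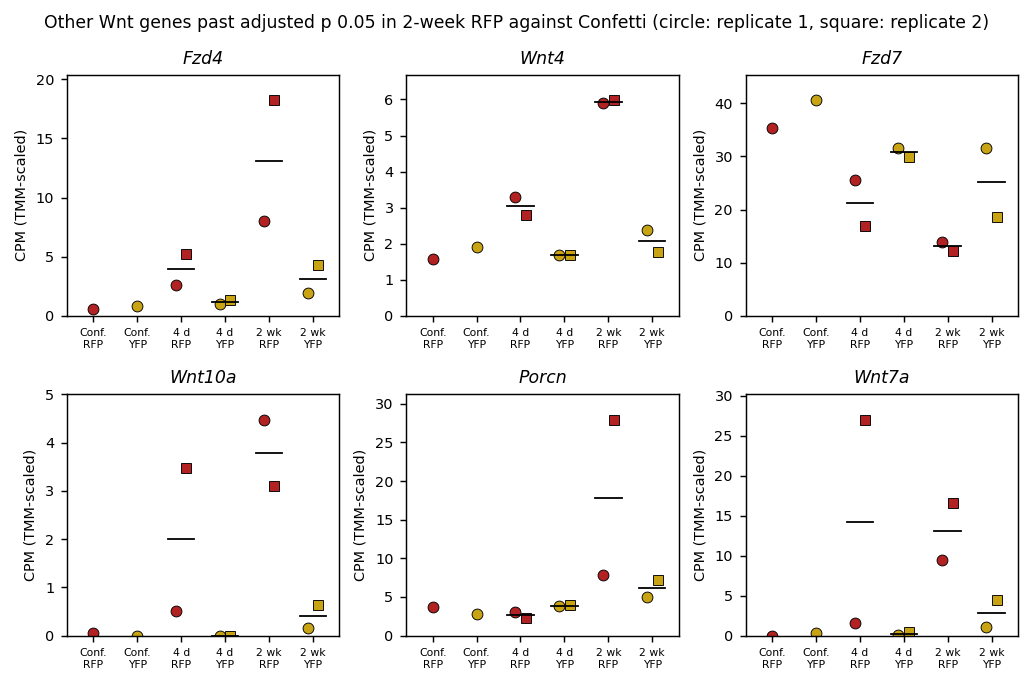
Level (y axis, TMM-scaled CPM, from 0) in each library (x axis, by group) of the 6 other Wnt pathway genes that passed an adjusted p of 0.05 in 2-week RFP against Confetti. Circles are replicate 1, squares replicate 2 and lines means. The 2-week RFP libraries lie above both Confetti libraries for Wnt4, Wnt7a, Wnt10a, Porcn and Fzd4 and below them for Fzd7.

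The genes whose level followed that of Axin2 most closely over the 10 libraries were Nr2f2 (Pearson r = 0.996), Inpp4a (r = 0.994) and Mmp15 (r = 0.992), of 11805 genes with a mean above 1 CPM. Those nearest to Wnt7b were Mex3d (r = 0.971), Dock5 (r = 0.971) and Rbms1 (r = 0.969). The points share libraries of unequal depth and cell-state makeup, so these values are a description. Lef1 was too low for such a ranking.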

How the data were processed

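The values deposited are unnormalised UMI counts of each gene in each cell, which the authors made with Cell Ranger on GRCm38 (3.1.0 per the labels; the file headers name another version). The authors state at most gross empty-droplet removal for these files, and no normalization. As in the study's methods, cells were kept that had at least 1000 genes, up to 50000 UMIs and a mitochondrial share of UMIs up to 15%. Cells were clustered (scanpy 1.11.5, igraph 0.11.9; 5000 variable genes, 30 components, 20 neighbours, Louvain resolution 0.8), and immune, endothelial, mesenchymal and ciliated clusters were discarded. Doublets were kept in the main setting.

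UMIs were summed over the alveolar cells of each library and tested with edgeR 4.0.16 (R 4.3.3; TMM, filterByExpr, quasi-likelihood). The first fit had 6 group coefficients over 10 libraries, with Confetti as the mean of its 2 coefficients. The second fit covered the 8 Red2Kras libraries with colour and time point as terms. p-values were adjusted by Benjamini-Hochberg over all genes tested (threshold 0.05). The scripts were tested on simulated data. Replicates are libraries of pooled lungs, and p-values measure the spread between the Red2Kras libraries. In the first fit each Confetti colour had its own coefficient. The spread between the Confetti libraries therefore entered none of its p-values, those of the tests against Confetti included.

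Pairing was checked over 7050 genes with a mean above 10 CPM. Deviations of same-numbered RFP and YFP libraries from their group means correlated at r = 0.593 at 4 days and 0.668 at 2 weeks, so over 4 pairs the numbers were taken to pair the samples. With 2 libraries per group both pairs of a time point give the same r, and no label says that a number marks shared lungs.

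Shares of cells with a UMI cover counting error only. Alternatives were DESeq2 1.42.0 (size factors or its Wald test), no low-count filter, all cells, a marker gate, doublet removal, thinning to 2000 UMIs, a 10% mitochondrial limit, leaving out each library, and replicate blocks. Named were the 10 genes in each comparison, listed Wnt genes past the threshold (at most 10), the 3 most abundant where given, and the 3 genes most like Axin2, Lef1 and Wnt7b. Gene positions are from GENCODE M21, which held 30934 of 31053 identifiers. The members and lists were chosen with earlier results of these data known. The level of 1 gene is not reported here.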

Additional observations from a re-analysis of the deposited data

Results flagged for a closer look

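Signals of 4 of the genes appeared in cells that the comparisons leave out, at a share above that in every alveolar library after thinning to 2000 UMIs. A Lef1 UMI was found in 6.13% of 310 endothelial cells, against at most 0.070% of alveolar cells in any library and 0 of 2223 macrophage-like cells. Axin2 was also found in 6.13% of endothelial cells, against at most 2.87% in an alveolar library. Tcf7 was found in 2.90% of them, against at most 0.210%. A Wif1 UMI was found in 8.95% of 257 ciliated cells, against at most 0.298%. These cells were pooled over libraries and none of these shares was tested. Groups of 1 or 2 libraries are too small for a check of single libraries that stand apart.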

How the results depend on the processing

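The number of the tested genes called depended on the setting. In 2-week RFP against Confetti it was 1, and 2 with DESeq2 size factors, 4 with the DESeq2 test, 5 with no low-count filter, 0 with all filtered cells summed, 0 with the marker gate, 2 with the 4-day libraries left out (chosen after seeing the data) and 0 to 3 with single libraries left out. All genes called were 769, and in the same order 768, 2207, 3247, 0, 5, 1727 and 1 to 1931. In RFP against YFP over both time points it was 0, and 3 with the DESeq2 test, 5 with no filter and 0 to 3 with single libraries left out, where all genes called were 0, 1263, 1938 and 0 to 1485. Cells thinned to 2000 UMIs gave 13 genes there, 0 of them among the 10.

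With the replicate block within time points RFP against YFP called 3 of the genes over both time points (2228 of all genes) and 4 at 2 weeks (2137 of all genes), and 0 at 4 days (143 of all genes). With the block by number across time points it called 2 over both time points (924 of all genes) and 0 in the other comparisons. Across time points same-numbered libraries correlated at r = 0.122 to 0.417, with 2 pairs per comparison. The block changed no other call.

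At 2 weeks RFP against YFP called 0 of the genes, 3 with the DESeq2 test (468 of all genes, against 1), 5 with no filter (1382 of all genes) and 0 with any library left out. With no filter 1 was called in RFP against YFP at 4 days (504 of all genes), 1 in 4-day RFP against Confetti (821) and 3 in 2-week against 4-day RFP (695), and the count was 0 in each of these otherwise, with 0 to 1, 0 to 1 and 0 with single libraries left out. The DESeq2 test gave 112, 264 and 131 genes in these 3 comparisons, against 0. For YFP against Confetti it gave 12 at 4 days and 102 at 2 weeks (against 4 and 3), and the test without a filter 133 and 538. Between the time points of YFP all genes called were 0, 19 with the DESeq2 test and 194 without a filter, and for the change of the colour difference 0 and 55 without a filter. Thinning gave 3 genes at 2 weeks between colours, and 6 (RFP) and 6 (YFP) at 4 days against Confetti. In 2-week RFP against Confetti thinning still called 1 of the 10, but Axin2 (adjusted p = 0.0465) in place of Notum. All cells and the marker gate gave 0 in both YFP comparisons with Confetti and, as did doublet removal, leaving out the 4-day libraries and the block by number, 0 at 2 weeks between colours. The 4-day libraries left out gave 9 for 2-week YFP against Confetti, and doublet removal 1 for 2-week against 4-day RFP. Without a filter 20847 genes were tested. The cause of these differences was not tested. Of the fold changes given, 7 changed sign, none of them called at the changed sign, though Wnt7b in 4-day RFP against Confetti was called at its positive sign without 4-day RFP replicate 1 (2.06) and without a filter (1.30). With 1 library left out these were Wnt7b in 4-day RFP against Confetti (-0.20 to 2.06), Znrf3 at 2 weeks between colours (-1.19 to 0.068), and Wnt7b (-1.33 to 0.93), Tcf7 (-1.31 to 0.36) and Rnf43 (-0.91 to 0.14) in 2-week against 4-day RFP. With all filtered cells summed they were Tcf7 in 4-day YFP against Confetti (0.72) and Nkd1 in 2-week YFP against Confetti (-0.13). Thinning moved 85 of 100 library shares outside their 95% interval, and at resolution 1.5 the median over libraries of 8 of 40 gene and state pairs, all in DATP-like cells, left the range of the libraries at resolution 0.8. Within that range the median of Notum in AT2-like cells went from 6.10 to 3.07 CPM. Depth limits Lef1, Wif1, Tcf7 and Notum most.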
